A study of Rattus norvegicus with 64 samples.

Results

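The 10 genes described here are ones that p53 is known to switch on, followed across rat hippocampus and cortex: Cdkn1a, Mdm2, Ccng1, Bax, Phlda3, Sesn1, Sesn2, Gadd45a, Btg2 and Tp53inp1. They were taken by symbol from the gene-name column of the authors' comparison tables, each matched 1 of the 32551 gene identifiers counted, and all 10 passed the filter on low counts in every comparison. The identifiers, in the same order, were ENSRNOG00000000521, ENSRNOG00000006304, ENSRNOG00000003256, ENSRNOG00000020876, ENSRNOG00000009068, ENSRNOG00000000302, ENSRNOG00000042785, ENSRNOG00000005615, ENSRNOG00000003300 and ENSRNOG00000007964. Rats labelled ApoE3 or ApoE4, after the apolipoprotein E allele they carried, were given doxorubicin at 2 mg/kg weekly for 4 weeks from an age of 5 weeks, or PBS (phosphate-buffered saline) as the control. The brains were collected 5 to 6 weeks after dosing ended. Each of 32 rats gave 1 hippocampal and 1 cortical library of total RNA, which made 8 groups (region, allele and treatment) of 8 libraries, from 4 males and 4 females each. Every group carries one of these ApoE alleles, and how the alleles were introduced is not given in the sources used here. The question was whether transcripts of p53 targets still showed DNA damage signalling weeks after the drug.

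The transcription factor p53 is kept scarce by Mdm2, a ubiquitin ligase that is itself a p53 target and so closes a feedback loop. Broken DNA activates the kinases Atm and Atr, p53 is then stabilised, and it turns on genes that stop the cell cycle, aid repair, limit oxidative damage or start cell death. Doxorubicin traps topoisomerase II on DNA and causes strand breaks, and in exposed tissues it is a strong p53 activator. It enters the brain poorly, and most brain cells are neurons and glia that no longer divide.

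Libraries held 10836181 to 20397553 counts, and levels are given in CPM, a gene's share of the gene counts of its library scaled to 1000000, as the lowest, median and highest of the 8 libraries of a group. The lowest count of a member in any library was 20, for Tp53inp1, and 48 for Cdkn1a. Summed markers of hippocampal granule neurons were 221 to 357 CPM in hippocampus and 83.9 to 133 in cortex, and those of cortical projection neurons 61.7 to 113 and 266 to 343, which separated the regions as labelled. In 6 hippocampal libraries Ttr, the transthyretin gene of choroid plexus epithelium, exceeded 1000 CPM: 1 in ApoE3 PBS, 2 in ApoE3 doxorubicin, 2 in ApoE4 PBS and 1 in ApoE4 doxorubicin. No cortical library did. Results that rest on these 6 are given with and without them. In whole tissue, fewer cells of a type and less RNA per cell cannot be told apart. The labels' rat numbers follow genotype, sex and treatment, so a batch that ran with the numbers and the groups cannot be told apart.

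Of the 10 members, 8 have an entry among the RefSeq promoter sequences (build GRCr8), and 250 bases before the annotated start were searched on both strands for the p53 decamer (the 10-base element that occurs as a pair in p53 response elements) and for TGACGTCA, the cAMP response element bound by CREB. The decamer was in 4 of the 8 windows (Cdkn1a, Ccng1, Sesn1 and Gadd45a) and in 2221 of 33469 promoters, or 6.64%. TGACGTCA was in the Btg2 window alone and in 531 of 33469, or 1.59%. No match overlapped a match of the other kind. The windows of 3 genes are printed 5′ to 3′ on the gene's strand, with the match in capitals: Cdkn1a (chr20:7150682-7150931, plus strand) and Ccng1 (chr10:25684877-25685126, minus strand), because they hold a decamer and are classic damage reporters, and Btg2 (chr13:48087691-48087940, minus strand), because its level moved with activity genes as described further on. A match describes letters and is not a bound site.
Cdkn1a: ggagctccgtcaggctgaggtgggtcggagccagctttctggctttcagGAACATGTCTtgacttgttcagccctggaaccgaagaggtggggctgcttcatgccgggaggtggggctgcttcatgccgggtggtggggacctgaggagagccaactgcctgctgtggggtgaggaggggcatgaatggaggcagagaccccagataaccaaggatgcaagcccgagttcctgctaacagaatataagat
Ccng1: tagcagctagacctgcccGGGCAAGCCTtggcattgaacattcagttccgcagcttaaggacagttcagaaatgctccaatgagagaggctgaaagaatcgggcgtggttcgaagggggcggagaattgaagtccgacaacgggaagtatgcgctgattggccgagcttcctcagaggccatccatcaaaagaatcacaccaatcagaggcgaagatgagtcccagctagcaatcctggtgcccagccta
Btg2: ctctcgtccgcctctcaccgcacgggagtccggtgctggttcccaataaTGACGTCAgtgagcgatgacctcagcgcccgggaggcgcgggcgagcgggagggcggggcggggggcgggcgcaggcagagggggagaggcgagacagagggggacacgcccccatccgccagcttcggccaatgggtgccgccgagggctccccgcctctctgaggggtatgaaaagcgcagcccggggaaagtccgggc

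No member was found to change after doxorubicin in either region or genotype. With edgeR's quasi-likelihood test and Benjamini-Hochberg adjustment over all genes, 0 of 10 members passed (an adjusted p under 0.05) in each of the 4 comparisons, against a background of 0% of 14899, 14873, 14775 and 14838 genes in ApoE3 hippocampus, ApoE4 hippocampus, ApoE3 cortex and ApoE4 cortex. At an unadjusted p under 0.05 the members numbered 0, 0, 0 and 1, beside 10.3%, 7.38%, 9.25% and 8.82% of all genes. DESeq2 called 153, 0, 88 and 34 genes in the same comparisons and 0 members. CPM ranges of treated and control rats overlapped for every member in every comparison, where 0.0268%, 0.0202%, 0.0677% and 0.0404% of all genes had separate ranges. The members' median log2 changes were -0.02, -0.09, -0.07 and -0.02, beside 0.00, -0.01, 0.00 and 0.00 over all genes, and 4, 2, 2 and 4 of the 10 were higher. The authors' deposited tables, made with DESeq2, likewise called 0 members, with smallest unadjusted p-values of 0.108, 0.105, 0.0587 and 0.0326. In the ApoE4 cortex their table gave an adjusted p for 5 of the 10. Gadd45a, the member with the DESeq2 p of 0.0326 there, had none and so could not be called.

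**Figure D1:**
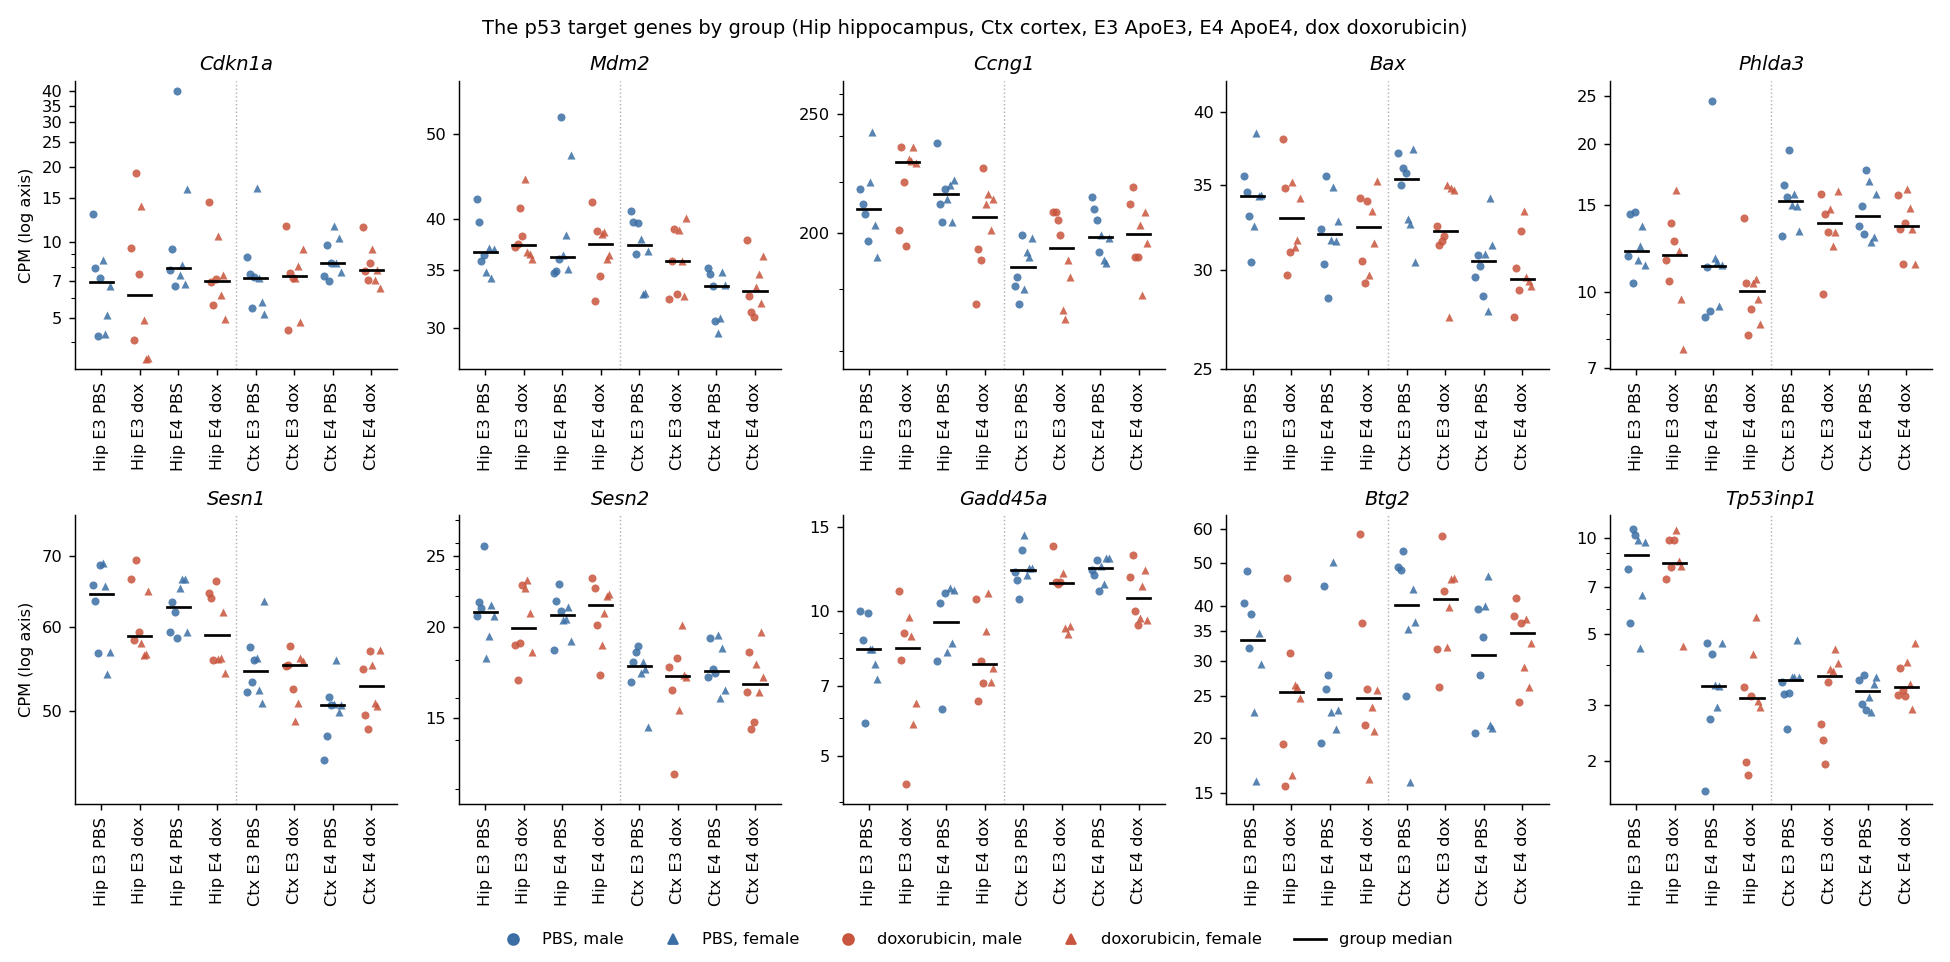
Level of each p53 target gene in every library, in CPM on a log axis, by region, ApoE allele and treatment (circles, males; triangles, females; blue, PBS; red, doxorubicin; black line, group median of 8). Treated and control points overlap in every pair of groups, Tp53inp1 stands higher in the ApoE3 hippocampus (medians 8.84 and 8.33 CPM) than in the other 6 groups (3.15 to 3.68), and single high Cdkn1a and Phlda3 points appear in ApoE4 PBS hippocampus.

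Cdkn1a encodes p21, the inhibitor of cyclin-dependent kinases through which p53 halts division, and it is the usual first reporter of p53 activity. In the ApoE3 hippocampus it was at 4.23, 6.94 and 12.9 CPM in PBS rats and 3.42, 6.17 and 18.8 after doxorubicin (log2 change 0.20, SE 0.33, edgeR adjusted p = 0.896). In the ApoE4 hippocampus the values were 6.69, 7.92 and 39.9 against 4.96, 7.03 and 14.5, with a log2 change of -0.66 (SE 0.35, edgeR adjusted p = 0.687). Both values turned on choroid-rich libraries: the ApoE4 change was -0.18 without PBS rat 7 and -0.15 without every library over 1000 CPM of Ttr, and the ApoE3 change was -0.06 without treated rat 51, -0.09 without treated rat 65 and -0.27 without every such library.

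In cortex Cdkn1a varied less. It ran at 5.19, 7.22 and 16.4 CPM in ApoE3 PBS rats and 4.48, 7.37 and 11.6 in treated ones, and at 7.03, 8.30 and 11.6 against 6.58, 7.72 and 11.5 in ApoE4 rats. The log2 changes were -0.08 (SE 0.22) and -0.12 (SE 0.12), neither past the test. The 95% intervals on the fold change were wide for this gene, from 0.709 to 1.85 in the ApoE3 hippocampus and from 0.378 to 1.06 in the ApoE4 hippocampus.

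Mdm2 and Ccng1, cyclin G1, which acts with a phosphatase on Mdm2, are the feedback members, and both varied little between rats. Mdm2 stood at 34.2, 36.7 and 42.2 CPM in ApoE3 PBS hippocampus and 36.0, 37.4 and 44.4 after doxorubicin, a fold change with an interval of 0.97 to 1.13. Its medians elsewhere were 36.2 and 37.5 CPM (PBS, then doxorubicin) in ApoE4 hippocampus, 37.4 and 35.8 in ApoE3 cortex, and 33.5 and 33.1 in ApoE4 cortex, and all of these pairs overlapped. Ccng1, which rises readily in damaged tissues, was at 191, 209 and 242 CPM in ApoE3 PBS hippocampus and 195, 229 and 235 after doxorubicin (log2 change 0.08, SE 0.05, edgeR adjusted p = 0.586). In ApoE4 hippocampus it was at 204, 215 and 237 against 175, 206 and 226, a log2 change of -0.09. The cortical medians were 188 and 194 CPM in ApoE3 and 199 and 200 in ApoE4, and the ApoE4 fold change had an interval of 0.94 to 1.05.

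Bax, which opens the mitochondrial outer membrane in apoptosis, and Phlda3, which restrains Akt survival signalling, carry the cell-death side. Bax was at 30.4, 34.4 and 38.5 CPM in ApoE3 PBS hippocampus and 29.7, 33.0 and 38.1 after doxorubicin, and its ApoE4 hippocampal medians were 32.0 and 32.5. The Bax change farthest from 0 was in ApoE3 cortex, 30.4, 35.4 and 37.4 CPM against 27.5, 32.2 and 35.0 (log2 change -0.11, SE 0.06, edgeR unadjusted p = 0.0714, adjusted p = 0.57). Phlda3 was at 13.0, 15.3 and 19.4 CPM in that cortex and 9.90, 13.8 and 16.0 after doxorubicin (log2 change -0.18, SE 0.09, unadjusted p = 0.0707 by edgeR). In the hippocampus its medians were 12.1 and 11.8 CPM in ApoE3 and 11.3 and 10.0 in ApoE4. Those hippocampal log2 changes were -0.08 and -0.26, and -0.24 and -0.11 without the libraries over 1000 CPM of Ttr (edgeR adjusted p = 0.442 and 0.732). Both genes were lower rather than higher in treated ApoE3 cortex, and neither difference passed.

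Sesn1 and Sesn2 encode sestrins, which relay stress and amino-acid shortage to mTORC1, and Gadd45a encodes a growth-arrest protein active in repair and demethylation. Sesn1 medians in PBS and treated rats were 64.4 and 58.8 CPM (ApoE3 hippocampus), 62.7 and 59.0 (ApoE4 hippocampus), 54.6 and 55.2 (ApoE3 cortex) and 50.7 and 52.8 (ApoE4 cortex). Sesn2 medians were 20.9 and 19.9, 20.8 and 21.4, 17.7 and 17.1, and 17.4 and 16.7 CPM in the same order. The log2 changes of both sestrins lay between -0.08 and 0.07 in all 4 comparisons.

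Gadd45a came nearest to a difference, and it was lower. In ApoE4 cortex it was at 11.0, 12.3 and 12.9 CPM in PBS rats and 9.34, 10.7 and 13.1 after doxorubicin (log2 change -0.18, SE 0.08, edgeR unadjusted p = 0.0368, adjusted p = 0.531). In ApoE3 cortex it was at 10.6, 12.2 and 14.4 against 8.95, 11.5 and 13.7 (log2 change -0.18, SE 0.09, edgeR adjusted p = 0.551). The exact two-sided permutation tests over 12870 groupings gave p = 0.0351 and p = 0.0681, unadjusted for the other members. The fold changes were 0.884 (0.789 to 0.992) and 0.881 (0.772 to 1.00). The hippocampal log2 changes were -0.05 and -0.16, with medians of 8.35 and 8.38 CPM in ApoE3 and 9.47 and 7.75 in ApoE4.

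Btg2, an antiproliferative adaptor of mRNA deadenylation that neuronal activity also induces, also varied widely between rats of a group. It was at 16.0, 33.4 and 48.0 CPM in ApoE3 PBS hippocampus and 15.6, 25.4 and 46.3 after doxorubicin (log2 change -0.30, SE 0.20, edgeR adjusted p = 0.635). Its medians were 24.6 and 24.7 CPM in ApoE4 hippocampus, 40.3 and 41.5 in ApoE3 cortex and 30.9 and 34.7 in ApoE4 cortex. Tp53inp1, which promotes p53 phosphorylation and autophagy, was at 4.51, 8.84 and 10.7 CPM in ApoE3 PBS hippocampus and 4.58, 8.33 and 10.6 after doxorubicin. Its medians were 3.45 and 3.15 CPM in ApoE4 hippocampus, 3.59 and 3.68 in ApoE3 cortex and 3.32 and 3.40 in ApoE4 cortex. No treatment difference in either gene passed the test.

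**Figure D2:**
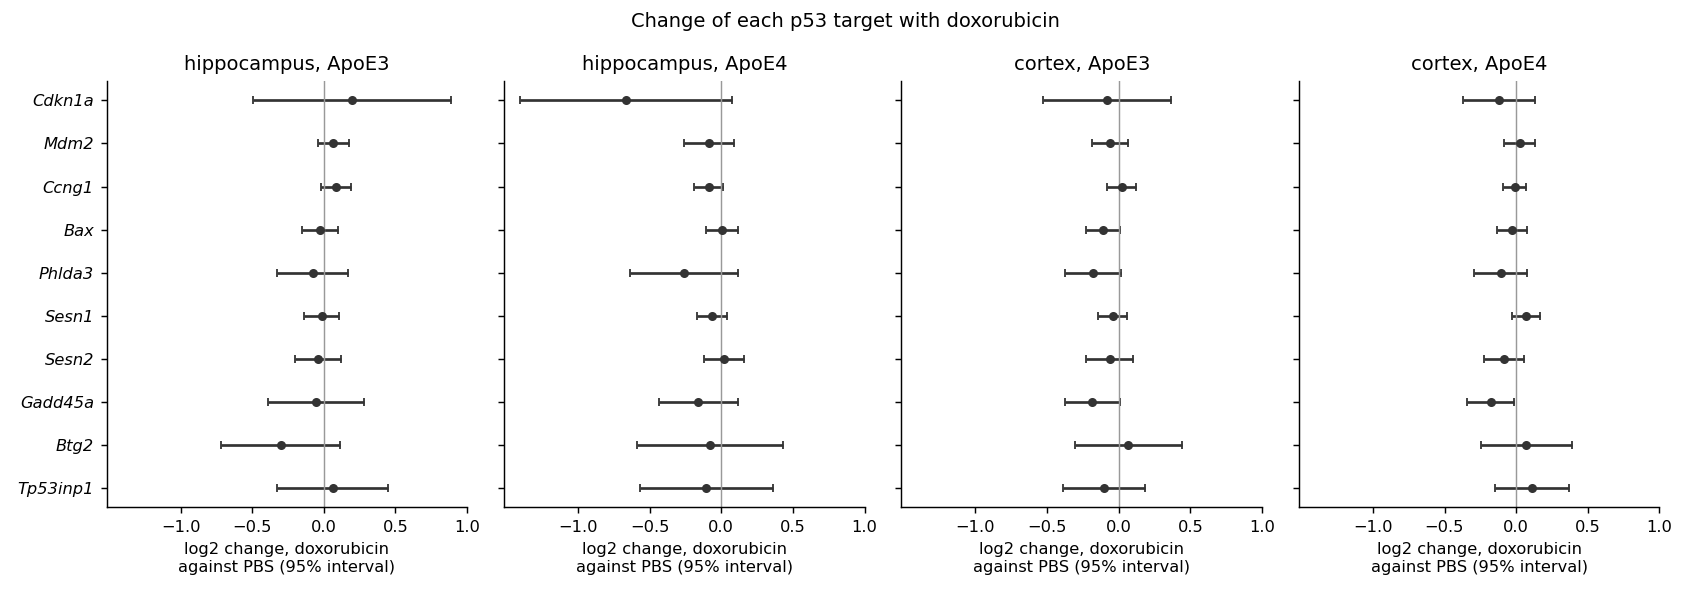
Log2 change after doxorubicin of each p53 target gene with its 95% interval from the edgeR fit, in 4 panels for region and ApoE allele; 0 is no change. Intervals are narrow for Mdm2, Ccng1, Bax and the sestrins and wide for Cdkn1a and Btg2, and only the Gadd45a interval in ApoE4 cortex lies wholly on one side of 0, before adjustment over all genes.

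These changes are relative to all other genes. Scaling by the ERCC spike-ins (synthetic RNAs added to each sample) raised the median log2 change of all genes by 0.24, 0.31, 0.18 and 0.16 in the 4 comparisons, and the members' medians became 0.22, 0.22, 0.10 and 0.15. Relative to that shift the members again stood at or below the other genes, but the sign of many members' changes turned, and the Gadd45a changes in cortex shrank to -0.01 in both genotypes. After this scaling 2, 2, 0 and 0 members had an unadjusted p under 0.05 in edgeR.

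None of the 11 tested genes of the list that controls p53 passed after doxorubicin in any comparison by edgeR, with median log2 changes of 0.01, -0.06, 0.01 and 0.03. None of the 20 or 21 other tested p53 targets passed either (medians 0.01, 0.01, 0.04 and -0.01). Zmat3, an RNA-binding p53 target, was at 0.13 in ApoE3 hippocampus (SE 0.06, edgeR adjusted p = 0.486). In ApoE4 cortex Pmaip1, which encodes the death-promoting protein Noxa, was at -0.26 (adjusted p = 0.457). Gdf15, a stress-induced p53 target, was too low to be tested in any of the 4 comparisons. Of the 26 other targets listed, 22 matched an identifier by symbol, and the remaining 4, Bbc3 and Eda2r among them, were not analysed here. At an unadjusted p under 0.05 the 4 comparisons held 0, 0, 2 and 0 control genes and 1, 1, 0 and 1 other targets.

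Genes of DNA damage signalling and repair (20 tested) had medians of 0.00, -0.02, 0.00 and -0.01, with 0 passed and 0, 1, 3 and 1 under an unadjusted 0.05. The 3 in ApoE3 cortex, Xrcc5, Rnf168 and H2ax, were at -0.16, -0.14 and -0.15. H2ax encodes the histone whose phosphorylated form marks breaks, a mark that RNA does not measure. The 13 or 14 cell-cycle genes that p21 represses had medians of -0.08, -0.06, -0.05 and -0.10, with Ccna2 in ApoE3 cortex at -0.41 (edgeR adjusted p = 0.465), and 0 passed, with 0, 0, 1 and 0 under 0.05. Among 14 or 15 relatives of the members 0 passed, with 2, 1, 1 and 3 under 0.05 and medians of -0.04, -0.05, -0.01 and -0.05. The nearest to passing of any listed gene was Sesn3, the remaining sestrin, in ApoE3 cortex (log2 change 0.20, SE 0.04, edgeR unadjusted p = 7.58e-05, adjusted p = 0.102). Of 3 or 4 tested senescence factors 0 passed, and 0 had an unadjusted p under 0.05.

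Lists of other stress programmes gave the same counts of 0 by edgeR. The 10 immediate early genes had median log2 changes of -0.19, 0.04, 0.14 and 0.03, and 0 were under an unadjusted 0.05. The 10 glucocorticoid-responsive genes had medians of 0.01, 0.07, 0.02 and 0.02, with 0, 2, 0 and 0 under 0.05. Integrated stress response genes (9 tested) had medians of 0.03, -0.02, -0.03 and -0.04, with 2, 0, 1 and 0 under 0.05.

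Markers of other cells differed between some of these groups more than the members did. In treated ApoE3 hippocampus all 6 meningeal markers were lower, at a median log2 change of -2.0, and their summed level was 65.6, 205 and 474 CPM in PBS rats and 49.6, 56.2 and 135 after doxorubicin. In ApoE4 hippocampus all 6 choroid plexus markers were lower (median -3.02), with sums of 12.0, 121 and 12286 against 8.67, 39.9 and 2269 CPM. In ApoE4 cortex 4 of 4 tested choroid markers were lower (median -1.65). The sums of all 6 there were 8.66, 13.2 and 666 CPM against 4.50, 11.0 and 80.6, and PBS rat 19 alone held 585 CPM of Ttr. In ApoE3 cortex 6 of 6 meningeal markers were higher (median 0.42). All 6, 6 and 4 of the lower ones were under an unadjusted p of 0.05 in edgeR, none passed after adjustment, and no marker was at 0 in all libraries of a group. Their part in the members' values was not tested beyond the choroid comparison and the correlations with choroid and meningeal scores given further on.

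When both genotypes of a region were fitted together and the treatment effect averaged over them, a comparison added after the data had been seen, 0 members passed in either region. The background was 0% of 15416 genes in hippocampus and 0.503% of 15315 in cortex, and 0 and 2 members had an unadjusted p under 0.05. Those 2 were cortical Gadd45a (log2 change -0.18, SE 0.06, edgeR unadjusted p = 0.0046, adjusted p = 0.18, fold 0.882, interval 0.811 to 0.96) and cortical Phlda3 (-0.15, SE 0.07, adjusted p = 0.359). With spike-in scaling the cortical Gadd45a value was -0.01. The hippocampal count rested on the scaling: with spike-ins 8084 of 15416 genes passed, and 5 of 10 members, all higher (Ccng1 0.26, Mdm2 0.26, Bax 0.26, Sesn1 0.24 and Sesn2 0.27, edgeR adjusted p from 0.0246 to 0.0494), of which Mdm2, Bax and both sestrins had been lower without spike-ins. Without the libraries over 1000 CPM of Ttr 175 genes and 0 members passed. No member's treatment effect differed between genotypes or between regions, by interaction terms in edgeR or DESeq2, where 0% of genes were called by edgeR too. Under an unadjusted 0.05 there was 1 such member in edgeR: Ccng1, whose hippocampal change was lower in ApoE4 than in ApoE3 rats by a log2 difference of -0.17 (SE 0.07, edgeR adjusted p = 0.555), in a comparison where 8.18% of genes had an unadjusted p under 0.05.

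The treatment effect was also compared between the sexes. In ApoE3 cortex 2.57% of 14775 genes differed (1.81% with the lower effect in females), but 0 of 10 members did by edgeR, and 2 had an unadjusted p under 0.05, beside 19.5% of genes. Ccng1 was nearest (female minus male log2 difference -0.25, SE 0.08, edgeR adjusted p = 0.0788), and DESeq2 called it (adjusted p = 0.0296). Its 4 treated males were at 199, 205, 208 and 208 CPM and the 4 PBS males at 175, 181, 184 and 199, so the 2 sets met only at 199. Its treated females, at 170, 173, 184 and 190, overlapped the PBS females at 180, 191, 193 and 198. Gadd45a had the same sign (-0.39, SE 0.17, edgeR adjusted p = 0.193): treated females were at 8.95, 9.21, 9.30 and 12.0 CPM against 11.9, 12.3, 12.3 and 14.4 in PBS females, while the males were at 11.4 to 13.7 and 10.6 to 13.4. In the same comparison 2 of 7 neuronal markers passed lower and 2 of 6 pericyte and smooth muscle markers passed higher, and none of the p53, repair or cell-cycle lists had a gene that passed. In the other 3 comparisons edgeR and DESeq2 called 0 members, against 0%, 0% and 0.00674% of genes in ApoE3 hippocampus, ApoE4 hippocampus and ApoE4 cortex. There, Sesn2 in ApoE3 hippocampus (0.30, edgeR adjusted p = 0.996) and Sesn1 in ApoE4 hippocampus (-0.22, edgeR adjusted p = 1) were under an unadjusted 0.05, as were 4.45% and 3.49% of genes, while 0 members were in ApoE4 cortex, beside 5.84% of genes.

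Cdkn1a, Mdm2 and Phlda3 moved together with choroid plexus RNA in the hippocampus. The 6 libraries over 1000 CPM of Ttr held Cdkn1a at 12.9, 18.8, 14.0, 39.9, 14.5 and 16.3 CPM for Ttr at 2960, 5588, 4564, 10643, 1997 and 5162. All 6 lay above the highest of the other 26 hippocampal libraries, in which Cdkn1a was at 3.42, 6.86 and 10.6 CPM and Ttr at 1.88, 15.4 and 642. Mdm2 was at 42.2, 41.2, 44.4, 52.3, 41.8 and 47.4 CPM in the 6, also all above the other 26 (32.2, 36.4 and 39.7). Phlda3 was at 11.8, 13.8, 16.1, 24.4, 14.1 and 11.3 CPM and overlapped the other 26 (7.63, 10.6 and 14.5). The share of all genes that set these 6 libraries apart in this way was not counted.

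Each marker score is the mean log2 CPM of a list's genes. Across the 32 hippocampal libraries, after the means of group and sex were removed, the choroid score correlated with Mdm2 (Pearson r = 0.88, Spearman rho = 0.80, permutation adjusted p = 6.00e-04 and 0.0018). The values were r = 0.85 and rho = 0.68 for Cdkn1a (permutation adjusted p = 0.0015 and 0.0108) and r = 0.67 and rho = 0.55 for Phlda3 (0.0237 and 0.0424). The adjustment covers 60 correlations of members with marker scores, by 100000 shuffles within group and sex. Without the 2 libraries farthest from the median of the choroid score r was 0.84, 0.77 and 0.47 for Mdm2, Cdkn1a and Phlda3. Among the 26 libraries at or under 1000 CPM of Ttr it was 0.70, 0.46 and 0.34. The group and sex means taken off in both cases were those of all 32 libraries. The libraries left out thus still shaped these r, which cannot show whether the correlation holds without them. Within ApoE3 and ApoE4 libraries r was 0.90 and 0.93, 0.86 and 0.84, and 0.56 and 0.76. Gadd45a had r = 0.55 and rho = 0.55 with the choroid score (permutation adjusted p = 0.0627 and 0.0424) and r = 0.53 and rho = 0.57 with the meningeal one (0.0229 and 0.0238). Phlda3 had r = 0.45 and rho = 0.53 with the meningeal score (permutation adjusted p = 0.157 and 0.0424), and in cortex Cdkn1a had r = 0.39 and rho = 0.49 (0.0627 and 0.0436). The other 6 members had r between -0.13 and 0.28 with the choroid score. In cortex Phlda3 alone correlated with the choroid score past the threshold (r = 0.46, rho = 0.52, adjusted p = 0.0229 and 0.0398).

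The genes most like Cdkn1a over the 32 hippocampal libraries were Tf (r = 0.93), Msx1, Fam183b, Efcab1 and Vat1l (0.92), of 13170 genes compared. Tf encodes transferrin, Msx1 a homeobox factor, and Efcab1 a calcium-binding protein of motile cilia. In cortex, among 13116 genes, they were Kdm6b (r = 0.79), Trim26 (0.76), Ppt2, Nudt22 and Mdga1 (0.75). Kdm6b encodes a histone demethylase. Between members, hippocampal r was 0.79 for Cdkn1a with Mdm2, 0.78 for Cdkn1a with Phlda3 and 0.70 for Mdm2 with Phlda3, while cortical Cdkn1a with Phlda3 had 0.47. These r are descriptions over libraries that share a group's tissue and cell content, and carry no p.

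**Figure D3:**
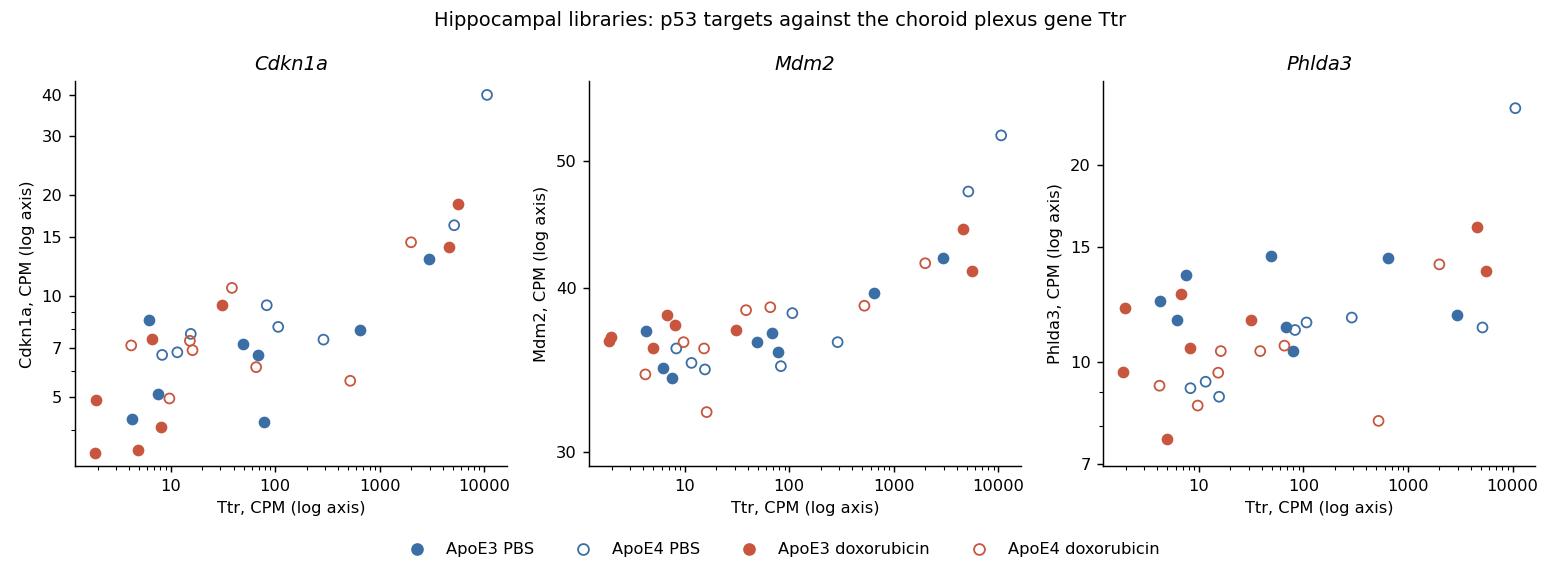
Cdkn1a, Mdm2 and Phlda3 against Ttr, the choroid plexus marker, in the 32 hippocampal libraries, in CPM on log axes. The 6 libraries over 1000 CPM of Ttr hold all the Cdkn1a values of 12.9 CPM or more and all the Mdm2 values of 41.2 CPM or more, in PBS and treated rats alike.

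Btg2 moved with the immediate early genes that firing neurons induce, which include Fos. Over the hippocampal libraries its r with their score, the mean of their log2 CPM, was 0.73 (rho = 0.67, permutation adjusted p = 0.0072 and 0.0238). Over the cortical ones it was 0.67 (rho = 0.59, permutation adjusted p = 0.0229 and 0.0424). Without the 2 farthest libraries r was 0.67 and 0.54, with group and sex means still taken over all libraries of the region. Within ApoE3 and ApoE4 rats it was 0.64 and 0.81 in hippocampus and 0.57 and 0.80 in cortex. Its r with Fos alone was 0.83 and 0.68, and with Ier2, another early gene, 0.94 and 0.88. Fos medians were 15.9 and 9.92 CPM in ApoE3 PBS and treated hippocampus, the pair of groups in which Btg2 medians were 33.4 and 25.4. With the early-gene score as a covariate the ApoE3 change of Btg2 was -0.08 in hippocampus, against -0.30 without it, and -0.03 in cortex, against 0.07 without it. With spike-in scaling the hippocampal value was -0.03. Btg2 was not the only member to follow the score: hippocampal Phlda3 had r = 0.33 and rho = 0.50 (permutation adjusted p = 0.365 and 0.0424). Hippocampal Gadd45a (r = 0.47, rho = 0.48, permutation adjusted p = 0.0962 and 0.0668) and cortical Cdkn1a (r = 0.53, rho = 0.49, adjusted p = 0.124 and 0.0668) did not pass. With the meningeal score hippocampal Btg2 had r = 0.51 and rho = 0.44 (permutation adjusted p = 0.0627 and 0.0915). The cause of the Btg2 differences between PBS and treated rats was not tested.

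**Figure D4:**
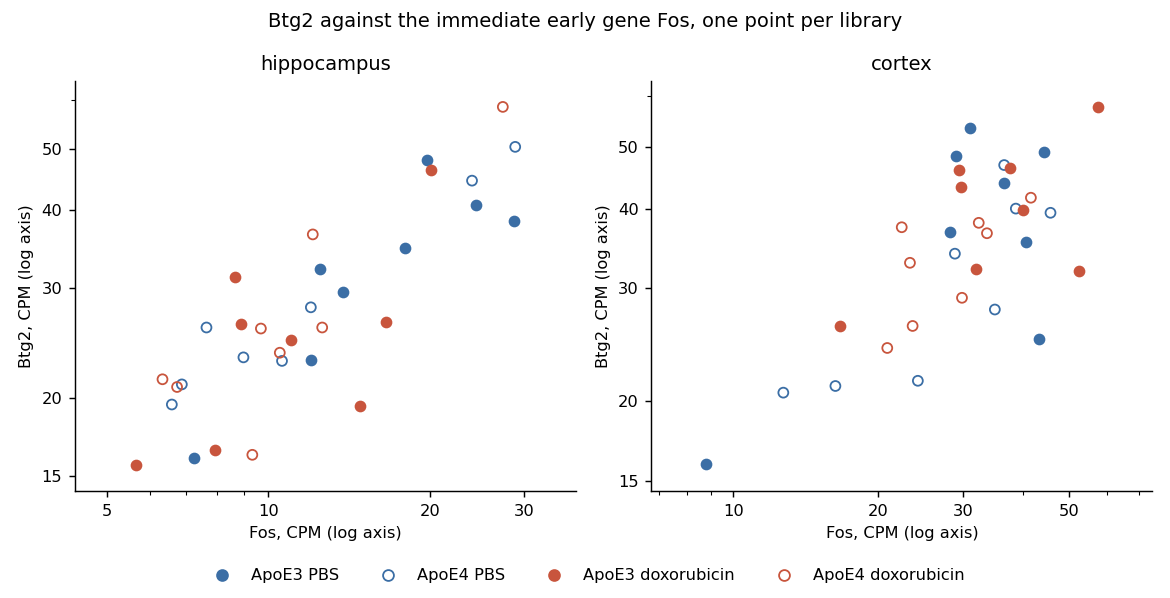
Btg2 against Fos in every library, hippocampus and cortex in separate panels, in CPM on log axes. Libraries with more Fos tended to have more Btg2 in both regions (r = 0.83 in hippocampus and 0.68 in cortex after group and sex means were removed).

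Between the genotypes, with no doxorubicin, Tp53inp1 was the member that differed most. In PBS hippocampus it was at 4.51, 8.84 and 10.7 CPM in ApoE3 rats and 1.61, 3.45 and 4.70 in ApoE4 rats, and the ranges overlapped only at their ends. The log2 change was -1.19 (SE 0.22, fold 0.438, interval 0.322 to 0.595, edgeR adjusted p = 6.27e-04). It passed in each of the 4 alternatives run (DESeq2, median-ratio factors, no filter, and without the libraries over 1000 CPM of Ttr), at log2 changes from -1.33 to -1.19. It was the 1 member of 10 that passed, beside 3.81% of 15416 genes (1.89% lower and 1.93% higher in ApoE4). In cortex the same gene was at 2.52, 3.59 and 4.78 CPM against 2.85, 3.32 and 3.71, a log2 change of -0.07 (edgeR adjusted p = 0.751).

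The test of that difference between regions, added after the data had been seen, gave -1.12 for Tp53inp1 (SE 0.26, edgeR adjusted p = 0.0298), where 0.29% of 15885 genes passed. With rat as a block the value was -1.11 and the adjusted p was 0.0694, so the call did not hold, while DESeq2 gave an adjusted p of 0.0106. Treated rats, which are other animals, had the same order: Tp53inp1 was at 4.58, 8.33 and 10.6 CPM in ApoE3 and 1.80, 3.15 and 5.64 in ApoE4 hippocampus.

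Genes beside Tp53inp1 on chromosome 5 in RefSeq order, chosen after the Tp53inp1 values were seen, did not pass between genotypes in PBS hippocampus. Plekhf2, Ndufaf6, Ccne2 and Ints8 had hippocampal genotype log2 changes of -0.09, -0.06, -0.03 and -0.05 (edgeR adjusted p of 0.671 or more). Between regions, Ccne2, cyclin E2, was lower in hippocampus in both genotypes (-0.34 and -0.43, edgeR adjusted p = 0.00945 and 2.42e-04), the opposite sign to Tp53inp1 in ApoE3 rats. Plekhf2 was higher in hippocampus in ApoE3 rats (0.21, edgeR adjusted p = 0.0355), the same sign as Tp53inp1. Ints8 was lower in ApoE4 rats (-0.20, edgeR adjusted p = 0.0168), where Tp53inp1 did not pass. Reads of overlapping or antisense transcripts at this locus could not be separated, since strand is not given in the sources used here.

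**Figure D5:**
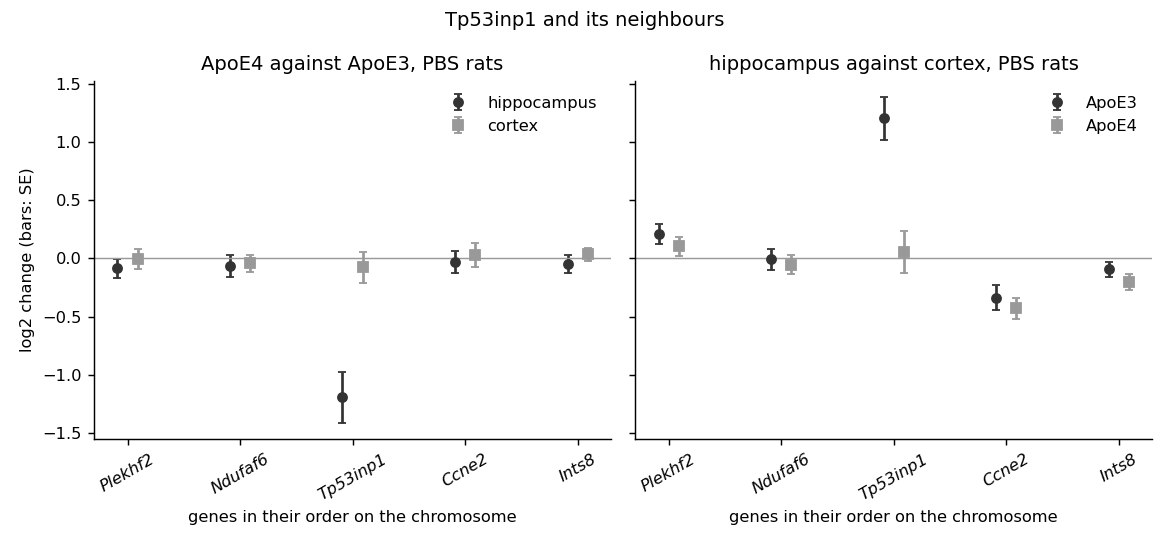
Log2 change with its SE for Tp53inp1 and its 4 chromosomal neighbours in the genotype and region comparisons of PBS rats. Tp53inp1 stands at -1.19 for ApoE4 against ApoE3 in hippocampus and 1.20 for hippocampus against cortex in ApoE3 rats, while the neighbours lie between -0.43 and 0.21.

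In hippocampus Cdkn1a was higher in ApoE4 than ApoE3 PBS rats by 0.85 (SE 0.36, edgeR unadjusted p = 0.0226, adjusted p = 0.212), and by 0.32 without the libraries over 1000 CPM of Ttr (adjusted p = 0.503). None of the 11 p53 control genes or 22 other p53 targets passed there by edgeR. Of the remaining lists Mdc1, a scaffold at DNA breaks (0.33, adjusted p = 0.0428), and Bcl2l1, an anti-apoptotic relative of Bax (0.14, adjusted p = 0.0302), passed higher. Fkbp5, a glucocorticoid-induced chaperone (-0.21, adjusted p = 0.0264), and Phgdh, a serine-synthesis enzyme (-0.27, adjusted p = 0.0385), passed lower. Over all genes 3.81% of 15416 passed in that comparison.

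In cortex 18.2% of 15315 genes differed between genotypes, and 2 of 10 members were among them, both lower in ApoE4, as were 8.57% of all genes, while 9.63% were higher. Bax was at 30.4, 35.4 and 37.4 CPM in ApoE3 PBS rats and 27.8, 30.5 and 34.2 in ApoE4 ones (log2 change -0.17, SE 0.05, fold 0.889, edgeR adjusted p = 0.0205), and it passed in each of the 3 alternatives run. Mdm2 was at 32.8, 37.4 and 40.8 CPM against 29.6, 33.5 and 35.2 (log2 change -0.16, SE 0.06, adjusted p = 0.0478), a value near the threshold that was 0.0717 with no filter on low counts. Both ranges overlapped. Ccng1 (0.11, adjusted p = 0.0761) and Sesn1 (-0.12, adjusted p = 0.0908) did not pass. Endothelial markers rose in the same comparison, 4 of 4 passed, and 3 of 6 astrocyte markers passed higher; their part in these values was not tested.

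Genes of the fixed p53 and repair lists are given beside the background of 18.2% of all genes, which the counts of other targets and repair genes were near. Of 11 control genes 5 passed: Hipk2, a kinase of p53 (0.60, edgeR adjusted p = 5.49e-08), and Chek1 (0.15) higher, and the damage kinases Atm (-0.27) and Atr (-0.26) and the acetyltransferase Kat5 (-0.13) lower. Of 21 other targets 4 passed, Pmaip1 (0.36) and Zmat3 (0.25) higher and Tigar (-0.25) and Plk2 (-0.16) lower. Of 20 repair genes 3 passed: Mdc1 (0.40) higher, and Xrcc1 (-0.27) and H2ax (-0.20) lower. Among the 15 matched relatives Sesn3 rose (0.42, edgeR adjusted p = 1.65e-06) and the inhibitor gene Cdkn1b fell (-0.19). The stress lists held 10 immediate early, 10 glucocorticoid-responsive and 9 integrated stress response genes that were matched. In them Zbtb16 rose (0.27) while Tsc22d3 (-0.29), Sgk1 (-0.59), Phgdh (-0.36), Atf4 (-0.16) and Ddit3 (-0.24) fell. The 18.2% of all genes is the background for the relatives and the stress lists too.

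Regions of PBS rats were compared by fits that did not pair the hippocampal and cortical library of a rat. By these fits 6 of 10 members differed in ApoE3 rats and 4 of 10 in ApoE4 rats. The background was 51% of 15428 genes in ApoE3 rats and 50.4% of 15432 in ApoE4 rats. Gadd45a was lower in hippocampus in both (log2 difference -0.58, SE 0.13, edgeR adjusted p = 3.16e-04, and -0.41, adjusted p = 0.00149), and lower in the hippocampus of all 32 rats, treated ones included. Sesn2 was higher in hippocampus in all 32 rats (0.27 and 0.21, adjusted p = 0.00403 and 0.00946). Sesn1 was also higher (0.18 and 0.30, adjusted p = 0.0071 and 6.25e-06), in 7, 8, 8 and 7 of 8 rats of the ApoE3 PBS, ApoE3 doxorubicin, ApoE4 PBS and ApoE4 doxorubicin groups. The share of all genes with the same direction in all 32 rats, or in all rats of a group, was not counted.

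Tp53inp1 differed between regions in ApoE3 rats alone among the 2 tests (1.20, SE 0.18, fold 2.30, edgeR adjusted p = 1.05e-06, against 0.06 and adjusted p = 0.819 in ApoE4). It was higher in hippocampus in 8 of 8 rats of both ApoE3 groups and in 5 of 8 of both ApoE4 groups. Ccng1 was higher in hippocampus in ApoE3 rats (0.17, adjusted p = 0.00861) and did not pass in ApoE4 rats (0.09, adjusted p = 0.0918, and 0.0491 without the libraries over 1000 CPM of Ttr).

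Phlda3 was lower in hippocampus in ApoE3 rats (-0.31, edgeR adjusted p = 0.0183). In ApoE4 rats it had -0.29 (adjusted p = 0.0908), and it passed there with rat as a block (-0.35, adjusted p = 0.0035) and without the libraries over 1000 CPM of Ttr (-0.52, adjusted p = 2.92e-05). Mdm2 was higher in ApoE4 hippocampus (0.24, adjusted p = 0.00328), with 0.13 (adjusted p = 0.0407) without those libraries. Cdkn1a did not pass in ApoE4 rats, and its sign depended on them (0.49 with, -0.19 without).

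Of 11 genes that control p53, 5 passed higher and 5 lower in ApoE3 rats, and 3 higher and 5 lower in ApoE4 rats, beside 51% and 50.4% of all genes in either direction. Mdm4, the partner of Mdm2 in restraining p53, was lower in hippocampus (-1.05 and -1.02), as were Atm (-0.78 and -0.73) and Atr (-0.75 and -0.38). Tp73, a p53 family gene (2.64 and 2.90), was higher. Of 21 other targets 5 passed higher and 7 lower in ApoE3 rats, and 5 and 10 in ApoE4 rats, against that same background, which the ApoE3 count was near. They included Perp, a membrane protein of p53-induced apoptosis (2.36 and 2.19), Psrc1 (-0.87 and -0.85) and the kinase gene Plk3 (-0.69 and -0.69).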

How the data were processed

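RNA of hippocampus and cortex was read in 64 libraries, as total RNA prepared with the NEBNext Ultra II kit, per the labels' protocols. Reads were aligned with STAR 2.5.2b and compared with DESeq2 (version not given), per the submitters' processing notes; the read counter, genome build and strandedness are not given in the sources used here. The authors deposited raw counts per gene, normalised signal that equals each count divided by 1 factor per library, and comparison tables with log2 fold changes and p-values. From the deposited counts, 92 ERCC rows were left out. The 1 row named ApoE3_donor, which is not among the rat gene identifiers, was kept. Comparisons used edgeR 4.0.16 in R 4.3.3: filterByExpr, TMM, sex as a covariate, the quasi-likelihood test and Benjamini-Hochberg adjustment at 0.05 over all genes tested. The SE was taken from the log2 change and the F statistic, and intervals are 95%. Doxorubicin was tested within the 16 libraries of a region and genotype; genotype and averaged comparisons used 32 libraries, and region comparisons 32 of 1 genotype. Log2 CPM used a prior count of 1.

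The members and lists were chosen with earlier results of these data known. All 10 members were named; of each list, genes that passed or up to 3 of smallest p were eligible. Region comparisons name 2 lists only. Alternatives were DESeq2 1.42.0, median-ratio factors, no filter, no sex term, spike-in scaling, 1 joint fit and leaving out each library; choroid and early-gene covariates and leaving out libraries over 1000 CPM of Ttr were added after seeing the data. Only the doxorubicin fit was tested on simulated counts, modelled on ApoE4 cortex, with changes larger than any member's change after doxorubicin. The genotype, region and interaction fits were not simulated. Both regions came from the same rats: over 15023 genes the within-rat correlation of deviations had a median of 0.22 (-0.02 to 0.35) and was over 0.1 in 27 of 32 rats. Libraries are separate rats within a region.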

Additional observations from a re-analysis of the deposited data

Results flagged for a closer look

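In 6 of 80 groups of 8 libraries (10 genes in 8 groups) 1 library stood apart from the others, and chance flags about 1 group in 20. Cdkn1a in ApoE4 PBS hippocampus was 39.9 CPM in rat 7, with the next at 16.3. That library held the most Ttr, 10643 CPM, and the same rat's cortex had 8.30 CPM of Cdkn1a. Phlda3 was also apart in rat 7, at 24.4 CPM against 11.7 for the next, and at 17.7 the rat's cortex was the highest of its group. Phlda3 was 14.1 CPM in ApoE4 doxorubicin rat 10 (next 10.6), a hippocampal library with 1997 CPM of Ttr. In ApoE3 PBS cortex Cdkn1a was 16.4 CPM in rat 56 (next 8.76), whose cortical Ttr was 8.95 CPM and whose hippocampus had 8.53 CPM of Cdkn1a. Sesn2 in ApoE3 PBS hippocampus was 25.8 CPM in rat 45 (next 21.6), and that rat's cortex, at 18.8, was also the highest of its group. Sesn2 in ApoE3 PBS cortex was lowest in rat 61, 14.6 CPM with the next at 16.8. The ApoE4 against ApoE3 difference in Tp53inp1 differed between hippocampus and cortex of PBS rats by a log2 value of -1.12, by the interaction test of edgeR, a call that did not hold with rat as a block.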

How the results depend on the processing

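Excluding fits that leave out 1 library, 602 of the members' log2 changes kept their direction and side of the threshold, 55 turned sign, 6 became calls in the same direction and 2 lost theirs. The 6 include Gadd45a in ApoE4 cortex by the permutation test, where an unadjusted p under 0.05 counted as a call (p = 0.0351). Of those that turned sign, 4 also became calls: Mdm2, Bax, Sesn1 and Sesn2 in the averaged hippocampal effect under spike-in scaling. Rat as a block changed the Phlda3 call in ApoE4 rats between regions (adjusted p = 0.0035) and the Tp53inp1 call between regions and genotypes (members called 0), took the genes whose doxorubicin effect differed between regions in ApoE3 rats from 0 to 9, and changed no other member's call. The causes were not tested.

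Counts of genes passing moved as follows. DESeq2 called 153 (ApoE3 hippocampus), 88 (ApoE3 cortex) and 34 (ApoE4 cortex) genes for doxorubicin, 230 and 12 for the averaged effect in cortex and hippocampus, 1 and 3 for its genotype difference in cortex and hippocampus, 764, 19 and 1 for its sex difference in ApoE3 cortex, ApoE4 cortex and ApoE4 hippocampus, 129 for its region difference in ApoE3 rats, 97 for the region and genotype term, and 1 member, Ccng1, for the sex difference in ApoE3 cortex. Without a filter 7 and 4 genes were called for doxorubicin in ApoE3 and ApoE4 cortex, 631 and 16 for the sex difference there, 40 for the region difference in ApoE3 rats, and 1 member between genotypes in cortex. One joint fit called 10 in ApoE3 cortex. The choroid covariate called 16 in ApoE4 cortex and 1 in ApoE3 hippocampus, and the early-gene covariate 1 in ApoE3 cortex. Leaving out libraries over 1000 CPM of Ttr called 175 for the averaged hippocampal effect. Spike-in scaling called 11 and 15 in ApoE3 and ApoE4 cortex, 0 for the averaged cortical effect, and 8084 genes with 5 members, all higher, for the averaged hippocampal one. Leaving out 1 library gave 0 to 2 genes in ApoE3 cortex, 0 to 1 in ApoE4 cortex, 0 in hippocampus and 0 members throughout.

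Signs turned as follows under spike-in scaling. ApoE3 hippocampus: Bax 0.22, Phlda3 0.19, Sesn1 0.23, Sesn2 0.22, Gadd45a 0.17. ApoE4 hippocampus: Mdm2 0.21, Ccng1 0.22, Phlda3 0.037, Sesn1 0.26, Gadd45a 0.15, Btg2 0.29, Tp53inp1 0.19. ApoE3 cortex: Cdkn1a 0.069, Mdm2 0.12, Bax 0.074, Sesn1 0.13, Sesn2 0.12, Tp53inp1 0.056. ApoE4 cortex: Cdkn1a 0.038, Ccng1 0.15, Bax 0.14, Phlda3 0.039, Sesn2 0.074. Averaged hippocampus: Cdkn1a 0.025, Mdm2 0.26, Bax 0.26, Phlda3 0.093, Sesn1 0.24, Sesn2 0.27, Gadd45a 0.16, Btg2 0.14, Tp53inp1 0.25. Averaged cortex: Cdkn1a 0.050, Mdm2 0.16, Bax 0.11, Phlda3 0.015, Sesn2 0.096.

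Without libraries over 1000 CPM of Ttr the turned values were Cdkn1a -0.27 and Tp53inp1 -0.022 in ApoE3 hippocampus, Mdm2 0.017, Bax -0.034 and Sesn2 -0.023 in ApoE4 hippocampus, Btg2 0.001 between genotypes in hippocampus, Mdm2 0.042 and Tp53inp1 0.045 for the averaged hippocampal effect, and Cdkn1a -0.19 and Tp53inp1 -0.080 between regions in ApoE4 rats. The choroid covariate turned Bax in ApoE4 hippocampus (-0.015) and Ccng1 in ApoE4 cortex (0.004). The early-gene covariate turned Sesn2 (0.004) and Gadd45a (0.043) in ApoE3 hippocampus and Btg2 (-0.030) in ApoE3 cortex. Rat as a block turned Phlda3 in the region and genotype term (-0.016). Leaving out rats 10 and 31 turned Bax in ApoE4 hippocampus (-0.009), and leaving out rats 72 and 58 turned Btg2 in ApoE3 cortex (-0.081). Leaving out 1 library gave ranges across 0 in ApoE3 hippocampus for Cdkn1a (-0.087 to 0.34), Bax (-0.059 to 0.003), Sesn1 (-0.040 to 0.016), Sesn2 (-0.068 to 0.003), Gadd45a (-0.14 to 0.042) and Tp53inp1 (-0.023 to 0.15). In ApoE4 hippocampus they were Bax (-0.019 to 0.036), Sesn2 (-0.001 to 0.058), Btg2 (-0.26 to 0.13) and Tp53inp1 (-0.22 to 0.008), in ApoE3 cortex Cdkn1a (-0.22 to 0.17), Ccng1 (-0.004 to 0.041) and Btg2 (-0.048 to 0.15), and in ApoE4 cortex Mdm2 (-0.004 to 0.042), Ccng1 (-0.027 to 0.008) and Btg2 (-0.005 to 0.19). The lowest counts in a library were 20 for Tp53inp1, 48 for Cdkn1a and 58 for Gadd45a.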

Other observations

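Tp53inp1 in cortex of ApoE3 rats was lower in males than females, noticed after the values were seen and with no test run. PBS males were at 2.52, 3.25, 3.27 and 3.53 CPM and PBS females at 3.66, 3.67, 3.67 and 4.78. Treated males were at 1.96, 2.33, 2.61 and 3.54 and treated females at 3.83, 3.88, 4.06 and 4.48, so the sexes did not overlap in either group. In ApoE4 cortex they did, with PBS males at 2.88 to 3.71 and females at 2.85 to 3.67, and treated males at 3.19 to 3.92 and females at 2.90 to 4.69. In ApoE3 hippocampus the sexes also overlapped, and the male means were the higher ones, 8.58 ± 2.43 (SD, n = 4) against 7.66 ± 2.58 in PBS rats and 8.82 ± 1.22 against 7.97 ± 2.51 in treated rats. Ccng1 in treated ApoE3 cortex also had the sexes apart, with males at 199 to 208 CPM and females at 170 to 190. The share of all genes with the sexes apart in these groups was not counted. Across hippocampal libraries, with group and sex means removed, Ccng1 and Sesn2 had r = -0.72 and Sesn1 had r = 0.69 with Tsc22d3, a glucocorticoid-induced gene; these describe 32 libraries that share depth and cell content. Gdf15, a damage reporter too low for the treatment tests, was at 0.897 to 2.93 CPM in the 6 hippocampal libraries over 1000 CPM of Ttr and at 0.0643, 0.275 and 1.15 in the other 26.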
